A study of Mus musculus with 6 samples.

Results

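Platelet-derived growth factor (PDGF) genes were followed in myospheres, floating clusters grown from muscle cells, through every probe set that the array annotation gave to 7 genes: the ligands Pdgfa, Pdgfb, Pdgfc and Pdgfd, the receptors Pdgfra and Pdgfrb, and the receptor-like gene Pdgfrl. They had 15 probe sets with 1 gene name, 11 on the Affymetrix chip MOE430A and 4 on MOE430B, out of 35041 such probe sets for 18193 genes, and 0 probe sets with several gene names included a member. The cells came from hind-leg muscle of male Balb/c mice, were enriched by sorting for the surface antigen Sca1, grew for 4 days in neurocult, a neural stem cell medium, with bf6f (as the label spells it), LIF, B27 and EGF, and gave total RNA at passage 1 from 2000000 cells. Replicates 1 to 3 were each hybridised to both chips, 6 arrays in all, with no other condition, and the labels give the 6 arrays the same submitter sample number. Nothing in the labels says that the replicates came from separate cultures or animals, so the p-values below measure only the spread between these arrays, which may be technical. No PDGF is named among the supplements.

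PDGFs are dimers that are secreted and bind receptor tyrosine kinases on mesenchymal cells, where they drive proliferation, migration and survival. PDGF-A and PDGF-B are cut by furin-like proteases before they leave the cell, whereas PDGF-C and PDGF-D are secreted in a latent form with a CUB domain that must be removed outside the cell. The alpha receptor binds dimers of the A, B and C chains, and the beta receptor binds dimers of the B and D chains. In skeletal muscle the alpha receptor is the usual marker of fibro-adipogenic progenitors, the beta receptor is typical of pericytes and other perivascular cells, and endothelial cells are a known source of PDGF-B.

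Values are MAS5 signals, the linear intensity that the Affymetrix software summarised per probe set. With 1 condition, the question the design allows is which genes gave signal above background. Background was taken on every array as the 95th percentile of probe sets for genes of other tissues, such as odorant receptors and keratin-associated proteins. This limit averaged 808.8 for the MOE430A arrays and 2902.6 for the MOE430B arrays. As the chips were scaled separately, a signal has meaning here in relation to the limit of the array it was read on. A probe set counted as above when it exceeded the limit on all 3 arrays of its chip, and limma tested the log2 ratio of signal to limit against 0 over all probe sets of the chip, with an adjusted p under 0.05 as threshold. The first rule was also passed by 2.67% of the background probe sets of MOE430A and by 4.55% of those of MOE430B. The limit was set on these same probe sets, so their shares were bound to be small and are not an error rate. The precision is limited by the number of arrays, 3 for each chip. Signal was lower at the 5' end of control transcripts, with a 3' over 5' ratio of 13.8 for Gapdh and 10.4 for actin on MOE430A. The part that this loss of 5' signal plays in low probe sets below was not tested.

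Both receptors, the receptor-like gene and the A and C ligands gave signal above the limit, and the B and D ligands did not. Of the 7 genes, 5 had at least 1 probe set above the limit on all 3 arrays, while 36.1% of all measured genes did. This share was larger for genes with more probe sets, at 22.1% for a single set, 42.3% for 2 sets and 59.1% for at least 3, so the members' count, over 4 genes with 2 sets, 2 with 3 and 1 with 1, is a description and not a test. Of the 11 member probe sets on MOE430A, 6 were above the limit, against 35.1% of all probe sets there. Of the 4 on MOE430B, 2 were above, against 10.1%. The median log2 ratio to the limit was 0.63 over the 11 member sets and -0.55 over all sets of MOE430A, and -0.62 over the 4 member sets and -1.87 over all sets of MOE430B. Without the 3 member sets whose IDs end in _a_at or _s_at, the count was 3 genes in place of 5, since Pdgfrb was then not above and Pdgfc had no set. Those endings mark probes that match several transcripts, in the case of _a_at of the same gene.

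**Figure D1:**
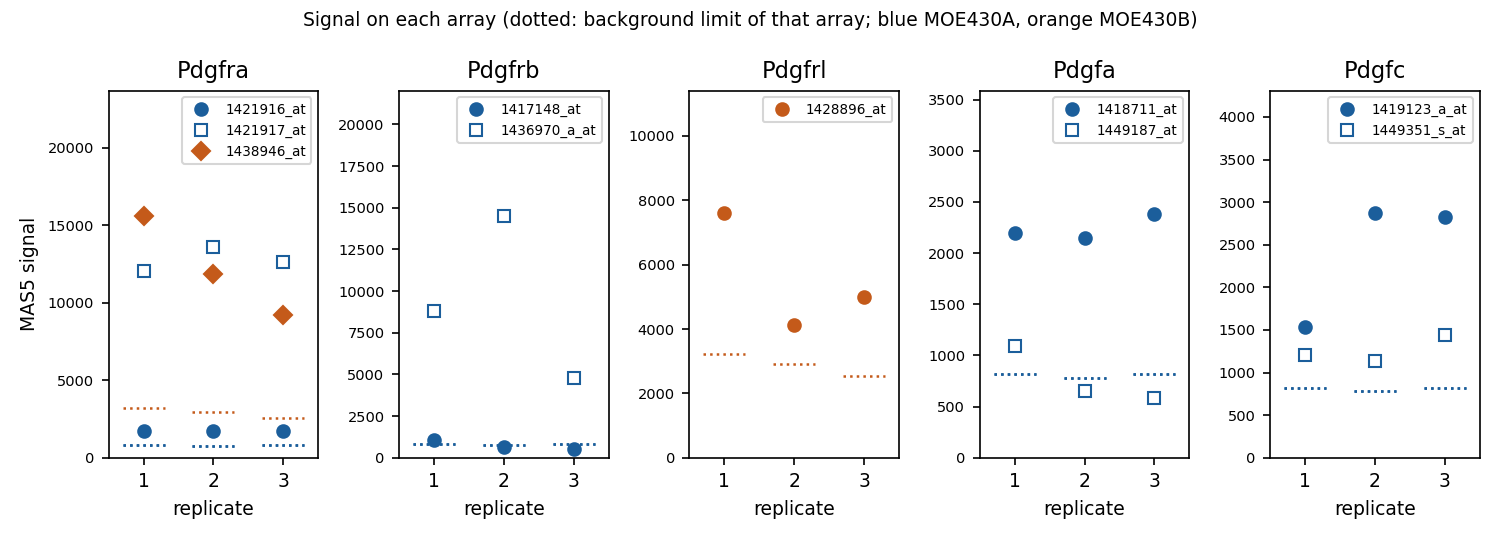
MAS5 signal (linear axis from 0) of each probe set of the 5 genes above the limit, by replicate, with the limit of each array as a dotted line; blue is MOE430A and orange MOE430B, which were scaled separately. All 3 Pdgfra sets lie above their limits on every array, and 1 Pdgfrb set ranges from 4805 to 14497 while the other crosses the limit.

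Pdgfra, which encodes the alpha receptor, exceeded the limit with each of its 3 probe sets. On MOE430A the set 1421917_at read 12016, 13582 and 12602 in replicates 1, 2 and 3. These signals lay 14.7, 17.3 and 15.3 times as high as the limits of their arrays. The fitted log2 ratio was 3.98 ± 0.10 (SE, n = 3; limma, adjusted p = 5.33e-08).

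The other Pdgfra set on that chip, 1421916_at, read 1712, 1706 and 1713. The 3 arrays were almost level, at 2.09, 2.17 and 2.08 times the limit, with a log2 ratio of 1.08 ± 0.11 (limma, adjusted p = 7.92e-05). Its coefficient of variation was 0.21%, and 0% of the 6008 probe sets of MOE430A with a mean signal within a factor of 2 of it varied less. On MOE430B the set 1438946_at read 15587, 11839 and 9178, all above the limits of that chip, at a log2 ratio of 2.04 ± 0.15 (limma, adjusted p = 7.12e-08). The 3 sets gave the same call at different distances from their limits. Replicate 3 was lowest by the MOE430B set and replicate 1 by 1421917_at. All 3 kept an adjusted p under 0.05 in limma when any 1 replicate was left out. Of the 685 genes with 2 probe sets on MOE430A and 1 on MOE430B, 4.96% had all 3 above and 41.5% had none. In bulk RNA, fewer cells of a type and less RNA per cell cannot be told apart.

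For Pdgfrb, which encodes the beta receptor, 1 of the 2 probe sets lay above the limit. The set 1436970_a_at read 8789, 14497 and 4805 in replicates 1, 2 and 3, which is 10.7, 18.5 and 5.85 times the limit. Every array was clearly above, but replicate 2 was 3.02 times as high as replicate 3. The log2 ratio was 3.39 ± 0.27 (SE, n = 3; limma, adjusted p = 1.91e-05), 2.99 without replicate 2 and 3.82 without replicate 3.

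The other Pdgfrb set, 1417148_at, read 1097, 641 and 545. It was above the limit in replicate 1 alone and did not pass limma, with a log2 ratio of -0.16 ± 0.23 (adjusted p = 0.551), turning to 0.06 without replicate 3. The 2 sets therefore disagreed both on the call and on the order of the replicates, since the first was highest in replicate 2 and the second in replicate 1. Their positions were 3.55 apart on the log2 scale, where the 2015 genes with 2 sets on MOE430A and none on MOE430B had a median gap of 1.72 and quartiles of 0.79 and 2.92. Probe sets of a gene differ in affinity and in the transcripts they match, so a gap is not a difference in expression.

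The spread of 1436970_a_at stood out among probe sets of like signal. Its coefficient of variation over the 3 arrays was 52.0%, against a median of 11.9% over the 1530 probe sets of MOE430A with a mean signal within a factor of 2, of which 99.8% varied less. The summed signal of 12 markers of pericytes and smooth muscle on MOE430A was 9527, 10000 and 10487 in replicates 1, 2 and 3. The median deviation of these markers from their own means was 0.08, -0.18 and 0.08 on the log2 scale. Most of them were not above the limit there, as 3 of the 12 were above by MOE430A sets. Of the 4 markers above the limit, Notch3 (1261, 1350 and 1042) and Acta2 (2709, 4109 and 3411) were highest in replicate 2. Rgs5 (1698, 1355 and 1754) and Abcc9 on MOE430B (5965, 3874 and 7062) were lowest there. The part that perivascular cells play in this spread was not tested. On the same arrays the Pdgfra set 1421917_at had a coefficient of 6.21%.

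Pdgfrl, which encodes a protein like the ligand-binding part of the receptors but without a kinase domain, had 1 probe set, on MOE430B. It read 7612, 4136 and 4999, which is 2.35, 1.41 and 1.97 times the limit of each array. All 3 arrays were above, replicate 1 the highest and replicate 2 the nearest to the limit. The log2 ratio was 0.90 ± 0.20 (SE, n = 3; limma, adjusted p = 0.00167). The call did not hold with the 99th percentile as limit, where the log2 ratio was 0.21 (limma, adjusted p = 0.312), nor in limma without the intensity trend (adjusted p = 0.0576). Of the 3784 genes with 1 probe set on MOE430B and none on MOE430A, 9.67% were above. The MOE430B array of replicate 1 came from another chip lot than the other 2. Within that shared lot, replicates 2 and 3, the log2 ratio of Pdgfrl was 0.74 (limma, adjusted p = 0.0315).

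Among the ligands, 2 of 4 were above the limit. Pdgfa, whose product binds the alpha receptor alone, was above by 1 of its 2 sets on MOE430A, the chip that held both. The set 1418711_at read 2195, 2149 and 2385, level over the arrays at a coefficient of variation of 5.57% and a log2 ratio of 1.47 ± 0.10 (SE, n = 3; limma, adjusted p = 8.05e-06). The set 1449187_at read 1093, 652 and 581. It was above the limit in replicate 1 alone and did not pass limma (log2 ratio -0.12 ± 0.22, adjusted p = 0.632; 0.07 without replicate 3). The annotation gives both sets the same source sequence, yet they fell on either side of the limit in replicates 2 and 3.

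Pdgfc, whose product is secreted latent and also binds the alpha receptor, was above the limit by both of its sets. The set 1419123_a_at read 1539, 2868 and 2831, and its highest array was 1.86 times its lowest, replicate 1. It had a log2 ratio of 1.52 ± 0.19 (SE, n = 3; limma, adjusted p = 0.000262). The set 1449351_s_at read 1202, 1135 and 1444, at a log2 ratio of 0.63 ± 0.13 (limma, adjusted p = 0.0037). The dip of the first set in replicate 1 was not seen in the second, whose lowest array was replicate 2. With the 99th percentile as limit the second set no longer passed, at a log2 ratio of 0.13 (limma, adjusted p = 0.477). Both Pdgfc sets carry the endings of shared sequence, so no Pdgfc call rests on a set without such an ending. The ending of the first set, _a_at, marks transcripts of the same gene.

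Pdgfb, whose product binds both receptors, was under the limit on every array by both sets. The set 1450414_at read 624, 460 and 532, at a log2 ratio of -0.60 ± 0.22 (SE, n = 3; limma, adjusted p = 0.0359). The limma call was lost when replicate 1, 2 or 3 was left out (adjusted p of 0.0653, 0.122 and 0.107), and with the 90th percentile as limit (adjusted p = 0.232), although the set stayed under the 95th percentile limit on every array. The set 1450413_at read 286, 61.3 and 284, with replicate 2 far below the others, at -2.24 ± 0.54 (limma, adjusted p = 0.0069). Of the 2015 genes with the same layout of probe sets, 45.9% had neither above, 33.8% had 1 and 20.3% had both.

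Pdgfd, whose product binds the beta receptor once its CUB domain is removed, was under the limit on every array by all 3 sets. On MOE430A 1426319_at read 26.1, 53.5 and 75.6, at a log2 ratio of -4.10 ± 0.50 (SE, n = 3; limma, adjusted p = 0.000246). On MOE430B 1446691_at read 105, 1462 and 297 and 1456532_at read 645, 1003 and 436.

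Replicate 2 was highest for both MOE430B sets of Pdgfd but stayed under the limit of 2929 there. Their log2 ratios were -3.02 ± 0.81 and -2.14 ± 0.55 (limma, adjusted p = 0.00477 and 0.00416), and neither passed with the array median as limit, at -1.37 and -0.49 (limma, adjusted p = 0.185 and 0.433). Signal under the limit does not show that a gene is silent, and the MOE430B limit is high.

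**Figure D2:**
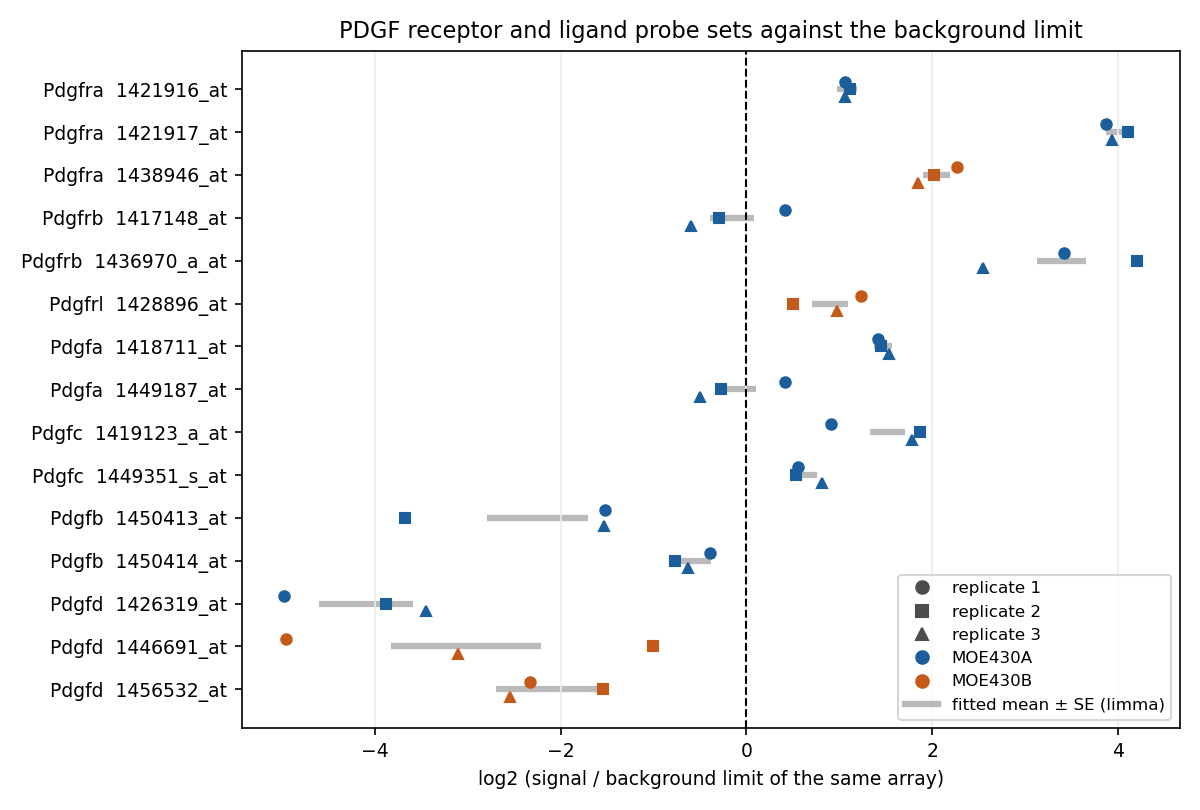
Position of all 15 probe sets against the background limit, as log2 of signal over the limit of the same array; symbols are replicates, colours are chips and grey bars are the fitted mean ± SE from limma. The sets of Pdgfra, Pdgfc and Pdgfrl lie right of the dashed limit on every array, those of Pdgfb and Pdgfd lie left of it, and Pdgfrb and Pdgfa have a set on the right and a set that straddles it.

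Over all 15 sets limma placed 8 above the limit and 5 below it, and 2 passed in neither direction. On MOE430A 32.5% of all probe sets were placed above and 47.9% below, and on MOE430B 8.57% and 73.3%. The 8 sets placed above by limma were the same 8 that exceeded the limit on all arrays. Of the 6 members with 2 or more sets, 4 had all sets on the same side of the call, namely Pdgfra and Pdgfc above and Pdgfb and Pdgfd not above. Of all genes with the same layouts of sets, 66.2% (2 sets on MOE430A), 46.4% (the layout of Pdgfra) and 58.6% (the layout of Pdgfd) had all sets on 1 side, so the members' count is near that of other genes. The gap between the 2 MOE430A sets was 0.89 for Pdgfc, 1.59 for Pdgfa, 1.65 for Pdgfb and 2.89 for Pdgfra on the log2 scale. The Pdgfra pair, like that of Pdgfa, shares its annotated source sequence.

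No replicate was high throughout. On MOE430A replicate 1 was highest relative to its limit for 4 of the 11 member sets, replicate 2 for 4 and replicate 3 for 3. Each of the 2 sets near the limit, of Pdgfa and of Pdgfrb, crossed it in replicate 1 only. The highest over the lowest array ranged from 1.00 for 1421916_at of Pdgfra to 3.02 for 1436970_a_at of Pdgfrb among sets above the limit, and reached 14.0 for the Pdgfd set 1446691_at, which lay under it.

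**Figure D3:**
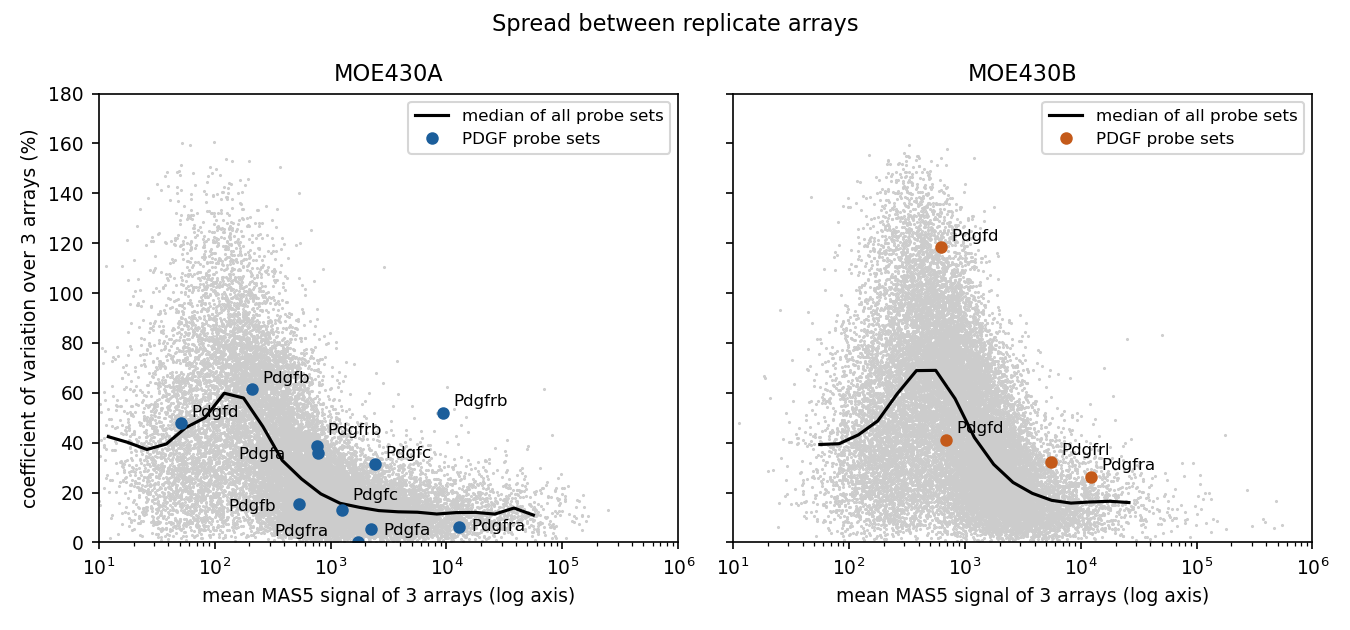
Coefficient of variation over 3 arrays (%) against mean MAS5 signal (log axis) for all probe sets of each chip in grey, with their median as a black line and the PDGF sets in colour. The Pdgfrb set 1436970_a_at, at 52.0% and a mean of 9363, lies far above the median line, while both Pdgfra sets on MOE430A lie below it.

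The latent ligands need proteases outside the cell, and the A and B chains need convertases inside it. Genes that process PDGF or bind it outside the receptor were above the limit for 10 of 12, against 36.1% of all measured genes. That general share was 22.1%, 42.3% and 59.1% for genes with 1, 2 and 3 or more sets. In limma 9 of the list passed above the limit, and Thbs1, at 0.21, did not (adjusted p = 0.233). The median log2 ratio of the list was 2.02 for the set of each gene furthest above its limit. It was -0.42 over all genes and 1.47 over the 7 PDGF genes. This median is over a maximum of sets, and over all genes it was -1.26 with 1 set, -0.08 with 2 and 0.67 with 3 or more, while this list has 4 genes in each of these classes. Plat, the tissue plasminogen activator that releases active PDGF-C, gave 3414 ± 650 (SD, n = 3; log2 ratio 2.06; limma, adjusted p = 2.53e-06), beside Pdgfc above the limit. Plau, the urokinase that activates PDGF-D, gave 2894 ± 113 (log2 ratio 1.84; limma, adjusted p = 1.52e-06), while Pdgfd itself was under the limit. Plat and Plau were each above by 1 of their 2 sets. Furin, which cuts the A and B chains, gave 5477 ± 142 (log2 ratio 2.76; limma, adjusted p = 1.05e-07), beside Pdgfa above and Pdgfb under the limit. Of binding partners, Sparc lay at 5.18 and the receptor partner Lrp1 at 3.09, and A2m, a plasma protein that carries PDGF, was under the limit at -1.07 (limma, adjusted p = 0.00878).

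The nearest relatives, VEGF ligands and receptor kinases of the same structural classes with their ligands, were above for 8 of 13 genes, with a median log2 ratio of 0.26. In this list 4 genes had 1 set, 3 had 2 and 6 had 3 or more. Over all genes of these classes 22.1%, 42.3% and 59.1% were above, with medians of -1.26, -0.08 and 0.67. Of receptors in that list Csf1r and Kdr lay above at 1.84 and 1.17, Flt1 lay below at -1.47 on MOE430B (limma, adjusted p = 0.00635), and Flt3 was above on 2 of 3 arrays. Kit and Flt4 exceeded the limit on all arrays but did not pass limma, both at 0.26 (adjusted p = 0.158 and 0.132), and turned to -0.24 each with the 99th percentile as limit.

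Downstream of the receptors, adaptors and effectors were above for 16 of 24 genes measured and genes that end or limit receptor signalling for 14 of 16, with medians of 1.07 and 1.29. Of the 24 genes 15 had 3 or more sets, and of the 16 genes 8 did, a class in which 59.1% of all genes were above with a median of 0.67, so the first count is near the general share. From these lists 6 and 2 further genes were not analysed here. Of the subunits of phosphatidylinositol 3-kinase, which docks on both receptors, Pik3r1 (on MOE430B), Pik3r2 and Pik3ca lay above at 2.45, 1.01 and 0.79, and Pik3cb (on MOE430B) below at -3.72 (limma, adjusted p = 0.000789). The Pik3r1 call rests on 1 of its 4 sets. The Pik3ca call rests on 1 of its 6 sets and did not pass limma with the 99th percentile as limit, at 0.28 (adjusted p = 0.104). Immediate-early genes, which PDGF, FGF and EGF all induce, were above for 14 of 16, against 36.1% of all genes, with Fos at 4.01. As EGF was in the medium, and no culture without it was measured, these counts do not bear on PDGF signalling in particular.

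**Figure D4:**
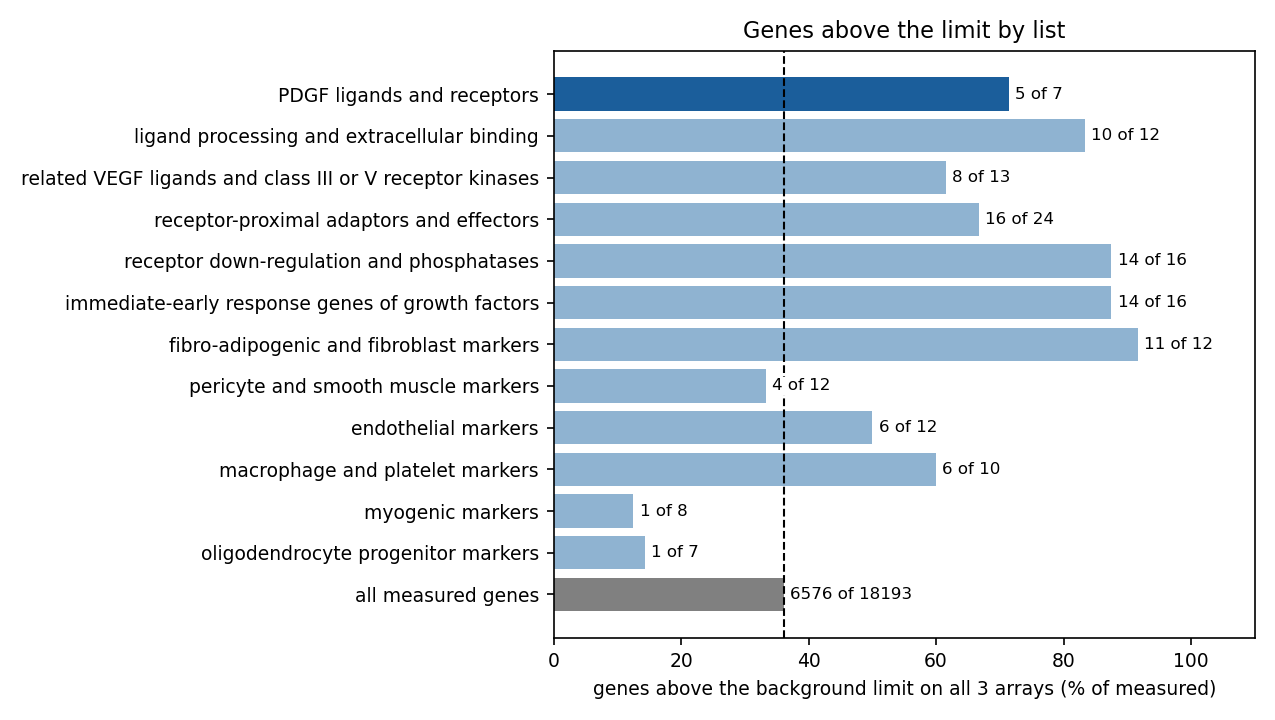
Genes above the background limit on all 3 arrays as a percentage of the genes measured, for the PDGF genes, the pathway lists and the cell type markers, with counts beside the bars; the dashed line and grey bar give all 18193 genes. The fibroblast markers stand at 11 of 12 and the myogenic markers at 1 of 8.

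The cell types that PDGF genes usually mark were checked by other genes, beside the 36.1% of all measured genes above the limit. For fibro-adipogenic and fibroblast cells, which carry the alpha receptor, 11 of 12 markers were above the limit, with Cd34, Thy1, Dcn and Lum at 3.73, 2.16, 7.52 and 4.29. Their summed signal on MOE430A ranged from 337050 to 354550 over the replicates, and Tcf21 was not above. Oligodendrocyte progenitors also carry the alpha receptor. Of 7 measured markers of those cells 1 was above, Sox10 by an _a_at set at 0.76, while Olig1, Olig2 and Gpr17 lay at -2.30, -5.84 and -3.95 (limma, adjusted p = 0.00201, 4.66e-05 and 0.00104). That count was 2 without replicate 2.

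For perivascular cells, to which Pdgfrb usually points, 4 of 12 markers were above, near the 36.1% of all genes, namely Rgs5 at 0.98, Abcc9 (on MOE430B) at 0.92, Notch3 at 0.58 and Acta2 at 2.06. Without probe sets of shared sequence 1 of them stayed above, and without replicate 2 the count was 7. Cspg4 and Kcnj8 were above on 2 of 3 arrays, and the contractile markers Tagln, Myh11 and Cnn1 were below, at -2.56, -3.48 and -4.24 (limma, adjusted p = 0.00575, 0.00181 and 0.000383).

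Endothelial markers, of cells known to make PDGF-B, were above for 6 of 12, among them Kdr, and 9 of these markers had 1 set, a class in which 22.1% of all genes were above. Eng, Egfl7, Cldn5, Esam and Robo4 were the others above, at 0.94, 0.66, 0.66, 0.65 and 0.20. Robo4 did not pass limma (adjusted p = 0.248). In limma 5 of the 12 endothelial markers passed above the limit and 5 below it. Among those below, Pecam1 lay at -2.41 and Tie1 at -5.07 (limma, adjusted p = 0.00231 and 2.69e-05). Macrophage and platelet markers were above for 6 of 10, 8 of the 10 having 1 set. Pf4, a chemokine stored in platelets, lay at 3.75 and Itga2b at 0.67. Cd14, Csf1r, Lyz2 and Adgre1 made up the rest of those above, at 2.48, 1.84, 1.33 and 0.82. Aif1 lay below at -4.03 by an _s_at set (limma, adjusted p = 0.000171), and Ptprc, Cd68 and Tyrobp were not above. The summed signal of these markers was 22509, 26302 and 28350 in replicates 1, 2 and 3. Myogenic markers were above for 1 of 8, Chrna1, and Pax7 and Myf5 lay at -1.41 and -3.51 (limma, adjusted p = 0.00398 and 0.000593). That count was 2 without replicate 1 or without replicate 2. Myod1 and Myog exceeded the limit on 2 of 3 arrays, at 0.13 and 0.48 (limma, adjusted p = 0.567 and 0.073). The gene of the sort antigen, Ly6a, was not analysed here. The part of each cell type in the PDGF signals was not tested.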

How the data were processed

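The authors deposited MAS5 signal intensity on a linear scale for MOE430A and MOE430B, per the submitters' processing notes; its version is not given in the sources used here. The deposited intensity had a trimmed mean of 1500.2 to 1500.8 on every array after trimming 2% of probe sets at each end. Across probe sets, the correlation between replicates in log2 signal was 0.914 to 0.921 on MOE430A and 0.741 to 0.765 on MOE430B, and 0 probe sets held identical values in any pair. Symbols came from the platform annotation, updated by Entrez number through RefSeq (GRCm38.p6), which held 20351 of 20380 and 14486 of 14661 single-gene probe sets. Gene results use probe sets with 1 gene; controls were dropped.

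The limit was the 95th percentile of 150 reference probe sets on MOE430A and 44 on MOE430B. limma 3.58.1 in R 4.3.3 fitted log2(signal / limit) per chip with an intercept and an intensity trend, taking the limit as fixed, with Benjamini-Hochberg adjustment over 22626 and 22511 probe sets. The fit was tested on simulated data. Python 3.11.15, numpy 2.4.6, pandas 2.3.3 and matplotlib 3.10.9 did the rest. The members and lists were chosen with earlier results of these data known. All 7 members are given with every probe set. Other genes could be named from the processing and relative lists, and from the first 4 of each other list; further genes were named after their values were seen. A list gene's level is that of its probe set with the highest mean log2 ratio to the limit.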

Additional observations from a re-analysis of the deposited data

How the results depend on the processing

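Of the 143 member probe set values under the alternatives, 125 kept their direction and their side of the threshold, 10 lost the call, 2 gained it and 6 changed sign. The member genes above the limit numbered 5 and came to 3 without probe sets of shared sequence, where the member sets above on MOE430A also came to 3. The genes came to 4 with the 99th percentile as limit, where Pdgfrl was not above. They also came to 4 with MOE430A alone, which holds no Pdgfrl set. The member sets above on MOE430B numbered 2, and came to 1 with the 99th percentile as limit and with 1 probe set per gene; those passing limma there came to 1 with the 99th percentile and without the intensity trend. Of member sets, 2 near the limit changed sign. For Pdgfrb 1417148_at the log2 ratio was 0.133 with the 90th percentile, 0.323 with the array median and from -0.443 to 0.064 with 1 replicate left out. For Pdgfa 1449187_at these values were 0.17, 0.36 and from -0.384 to 0.073. With the 99th percentile the log2 ratio of these sets passed limma below the limit, at -0.657 and -0.62, and those of Cbl, Flt4, Kit and Thbs1 were -0.422, -0.243, -0.241 and -0.294; Flt1 was at 0.183 with the array median. The cause was not tested.

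Pericyte and smooth muscle markers above the limit were 2 with the 99th percentile, 8 with the array median, 1 without sets of shared sequence, 7 with at least 2 of 3 arrays above, and 4 to 7 with 1 replicate left out. Endothelial markers were 3 with the 99th percentile. Myogenic markers were 3 with the 90th percentile, with the array median and with at least 2 of 3 arrays, and 1 to 2 with 1 replicate left out. Oligodendrocyte progenitor markers were 0 with the 99th percentile and without sets of shared sequence, 2 with the array median and with at least 2 of 3 arrays, and 1 to 2 with 1 replicate left out. No paired analysis was possible because each signal is set against the limit of its own array, with no comparison between the groups that share replicate numbers.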
